A study of Mus with 4 samples.

Results

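The genes described here make, take up, move and export cholesterol. They were chosen by name, as a list of 32 gene symbols of the mevalonate and sterol pathway, by a rule that holds no measured value but was written with earlier results of these data known, and 29 of them were named in the array's annotation, of 19505 named genes in all. Acat2, Tm7sf2 and Nr1h2 were not analysed here. Of the 29, 17 are enzymes of synthesis from acetyl-CoA to cholesterol, 4 sense sterols or carry them to the sensor, 5 belong to the liver X receptor (LXR) axis of efflux and uptake, and 3 act in lipoprotein uptake and lysosomal export.

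Total RNA came from tumors that grew under the skin of male BALB/cCrSlc mice, bought at 4 to 6 weeks of age. The tumors were seeded with the mouse renal adenocarcinoma line Renca, whose cells stably expressed a hairpin RNA against the transcription factor Nrf3 (shNrf3) or a control hairpin (shCtrl). Before injection the hosts had been fed for 17 weeks, either a normal chow diet (NC) or a diet rich in fat (HFD), and tumors were taken 2 weeks after injection. There were 4 groups with 1 array each: shCtrl-NC and shCtrl-HFD carried the control hairpin, and shNrf3-NC and shNrf3-HFD the Nrf3 hairpin. The hairpin was in the injected cells and not in the host, so vessels, immune cells, fat and other host tissue in a tumor carried no hairpin. Whether an array holds 1 tumor or a pool, and whether the hairpin lines were clones, is not stated in the labels. No single difference below has a replicate check or a p-value.

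Cholesterol synthesis starts when acetyl-CoA units are joined into mevalonate, which is turned into isoprenoid building blocks. These are used to attach lipid anchors to proteins or are joined into squalene, which is closed into lanosterol and trimmed to cholesterol. When sterol in the endoplasmic reticulum is low, the escort protein Scap carries the transcription factor SREBP2 (encoded by Srebf2) to the Golgi for cleavage, and the released factor turns on most genes of the pathway. When sterol is high, Insig proteins hold the complex back, and oxysterols activate LXR, which turns on export by Abca1 and Abcg1 and, through the ubiquitin ligase Mylip, removal of the LDL receptor. Macrophages and adipocytes handle much cholesterol and express Apoe and Abca1, so a bulk tumor value mixes them with the tumor cells. Fewer cells of a type and less RNA per cell cannot be told apart in such a sample.

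Values are on the log2 scale, where 0.58 is 1.5-fold and 1 is 2-fold. A gene is counted as higher or lower at a difference of 1.5-fold or more. The labels rest on the construct and diet names alone. Nfe2l3, which encodes Nrf3, read 6.22 on shCtrl-NC, 5.56 on shNrf3-NC, 5.77 on shCtrl-HFD and 6.05 on shNrf3-HFD. With shNrf3 it was thus 0.66 lower in NC and, against the label, 0.28 higher in HFD, which is under 1.5-fold. All 4 readings were dim, under the brightest 5% of negative control rows, which began at 8.97 to 9.35. Groups are therefore called by their labels, and every knockdown direction is that of the label. The arrays also differed in level, though not in 1 direction for all rows. The median of all transcript rows was highest on shCtrl-NC, at 5.83 against 5.72 to 5.77 on the other arrays. The 95th percentile of negative control rows was also highest there (9.35). Positive control rows had medians of 9.19 on shCtrl-NC, 9.70 on shNrf3-NC, 9.75 on shCtrl-HFD and 9.57 on shNrf3-HFD. The 10021 genes past a filter on level (a mean at or above 5.73, the median of all rows) had a median of 8.61 on shCtrl-NC and 8.72 to 8.93 on the other arrays. Of the epithelial and renal tubule markers checked against the labelled cell type, Krt18 (14.46 to 15.90), Krt8 (14.32 to 15.08), Cdh1 (13.34 to 14.64) and Epcam (9.09 to 11.12) were well above the negative control medians (5.35 to 5.39) on every array. Of the 12 measured, 6 lay below them on all 4: the renal tubule markers Cdh16, Pax8, Pax2 and Lrp2 and the epithelial genes Cldn7 (3.66 to 4.96) and Ehf (3.97 to 4.50). In NC, 0 of the 12 were higher and 5 lower with shNrf3: Epcam, Cdh1, Krt18, Esrp1 and Cldn7. Of genes past the filter 13.5% were lower. In HFD 3 (25%) were higher with shNrf3 (Cldn7, Pax2 and Lrp2) and 3 (25%) lower (Cdh1, Krt18 and Krt19). Of genes past the filter 9.12% were higher and 20.8% lower there.

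The array labelled shCtrl-NC was the lowest of the 4 for 20 of the 29 cholesterol genes, and the highest for 0. Among genes past the filter shCtrl-NC was the lowest array for 41.6%, and among all named genes for 29.8%. Of the 17 synthesis enzymes 13 were lowest there, and of the 12 other members 7. For 8 members, Idi1, Ggps1, Fdft1, Sqle, Cyp51, Ebp, Scap and Npc1, it lay 1.5-fold or more below each of the other 3 arrays, which was so for 13.9% of genes past the filter. This count was chosen after the values were seen, and it depended on how the arrays were scaled. With each array centred on its positive control rows 9 members were lowest on shCtrl-NC (17.1% of genes past the filter), and Sqle was the 1 member left with a 1.5-fold gap. In detection, 28 of 29 members passed the filter, all but Mvk. The brightest 5% of negative control rows began at 8.97 to 9.35. Of the members, 12 read above that on all 4 arrays and 9 on none, so differences of those 9 rest on dim probe sets. The other 8 read above it on 1 to 3 arrays, Sqle on 2.

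**Figure D1:**
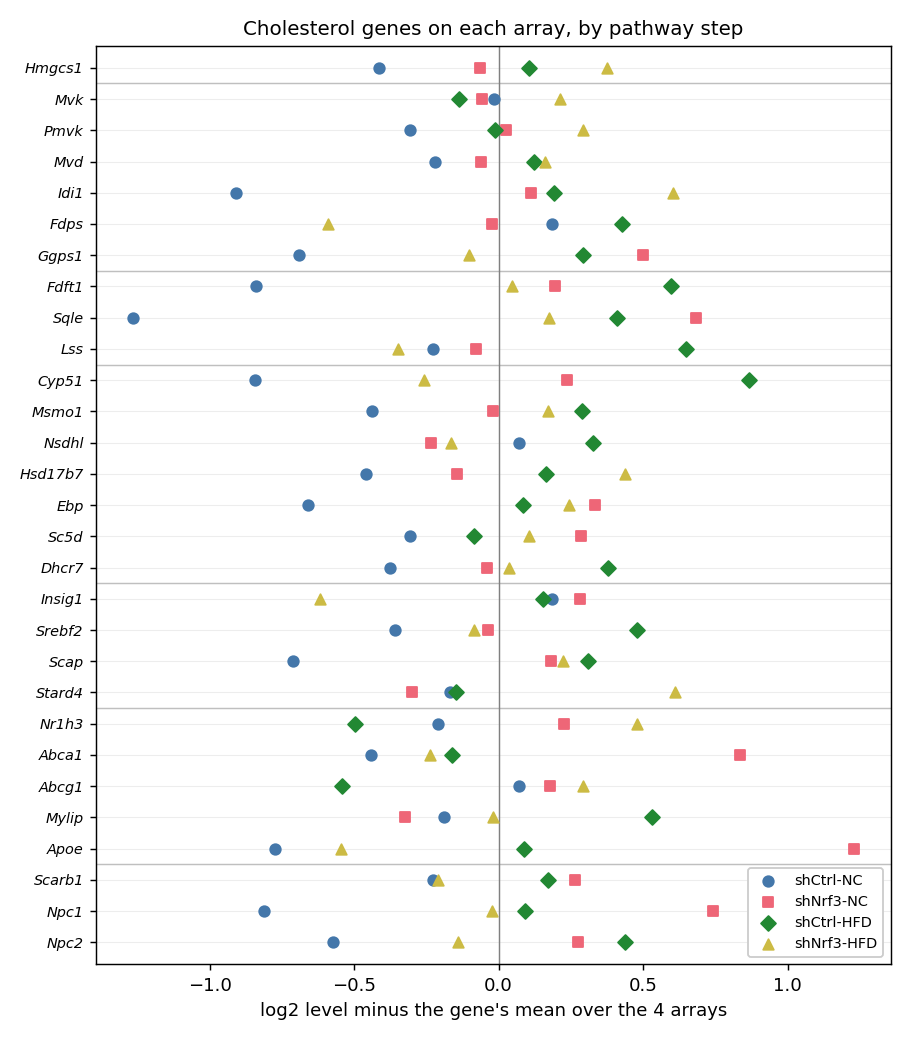
Each point is the log2 level of a cholesterol gene on 1 of the 4 arrays minus the gene's mean over the 4 arrays (x axis), with genes in order of pathway step and lines between steps (y axis). The shCtrl-NC points (circles) are the lowest of their row for 20 of 29 genes, and for Apoe, Npc1 and Abca1 the shNrf3-NC point (square) is the highest.

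The first question of the design is how the Nrf3 hairpin bears on the tumor under normal chow. In NC, 12 of 29 members (41.4%) were higher with shNrf3 and 0 were lower, with a median difference of 0.42. Among genes past the filter 26.8% were higher and 13.5% lower, and their median was 0.14, and among all named genes 18.8% and 18.9%. The higher members were the synthesis enzymes Sqle, Ggps1, Cyp51, Fdft1, Idi1, Ebp and Sc5d, the escort protein Scap, and Apoe, Npc1, Abca1 and Npc2. Under high-fat diet, 3 of 29 were higher with shNrf3 (9.12% of genes past the filter) and 5 were lower (20.8%), the median being -0.12 beside -0.14. Among all named genes 15.4% were higher and 15.7% lower. The lower members were Cyp51, Fdps, Lss, Insig1 and Apoe, and the higher ones Nr1h3, Abcg1 and Stard4. The knockdown differences of 15 members were above 0 in NC and below 0 in HFD, and those of 2 the reverse. No member was 1.5-fold or more higher, or lower, in both diets.

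**Figure D2:**
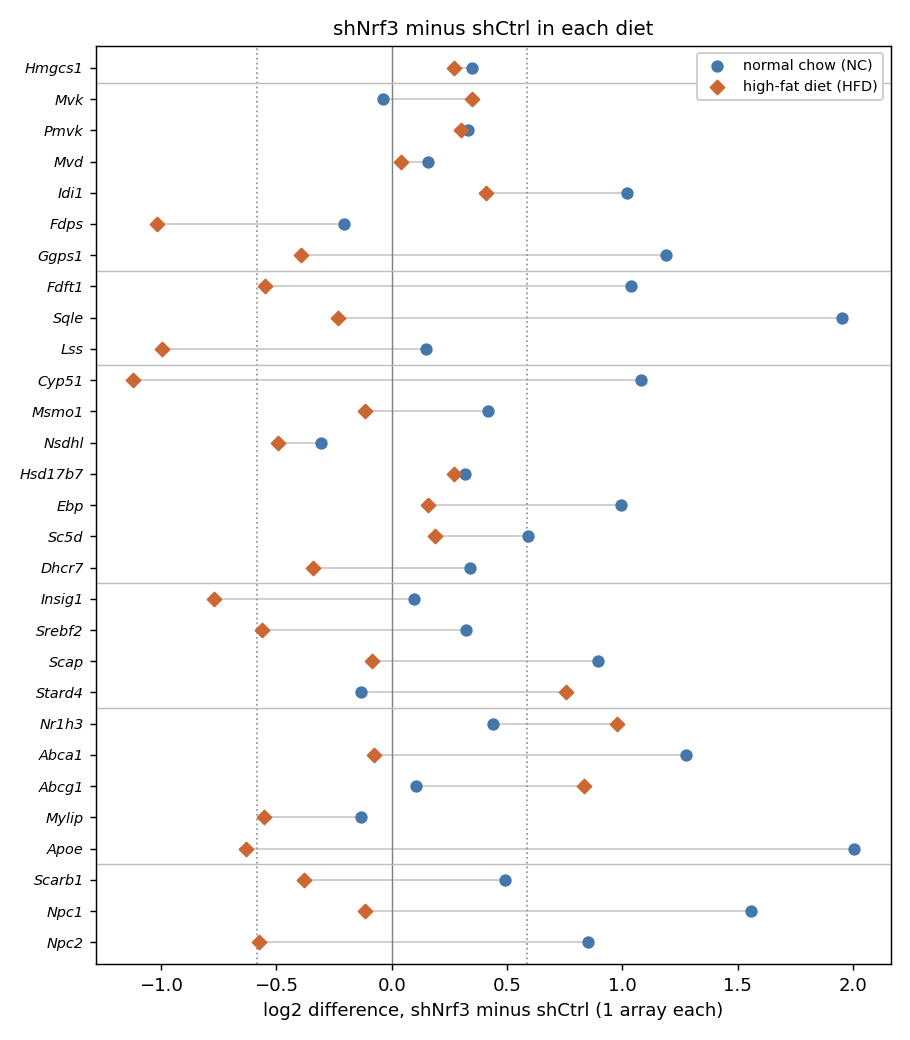
Each row is a cholesterol gene, with its log2 difference of shNrf3 minus shCtrl in normal chow (circle) and in high-fat diet (diamond) on the x axis, 1 array against 1. Dotted lines mark 1.5-fold, and 12 circles lie beyond the right line and 0 beyond the left, while 3 diamonds lie beyond the right line and 5 beyond the left.

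The second question is how the diet of the host bears on the tumor. With shCtrl, 16 of 29 members (55.2%) were higher in HFD than in NC and 1 was lower, with a median difference of 0.72. Among genes past the filter 31.2% were higher and 10.7% lower, and their median was 0.26, and among all named genes 20.9% and 19.2%. With shNrf3, 1 member was higher in HFD (8.84% of genes past the filter) and 5 were lower (14.4%), with a median of -0.05 beside -0.03. The shares over all named genes were 13.3% and 12.7%. The members lower with shNrf3 were Apoe, Abca1, Insig1, Npc1 and Ggps1, and the higher one was Stard4. The NC knockdown comparison and the shCtrl diet comparison share the shCtrl-NC array, so a low reading on it raises both.

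**Figure D3:**
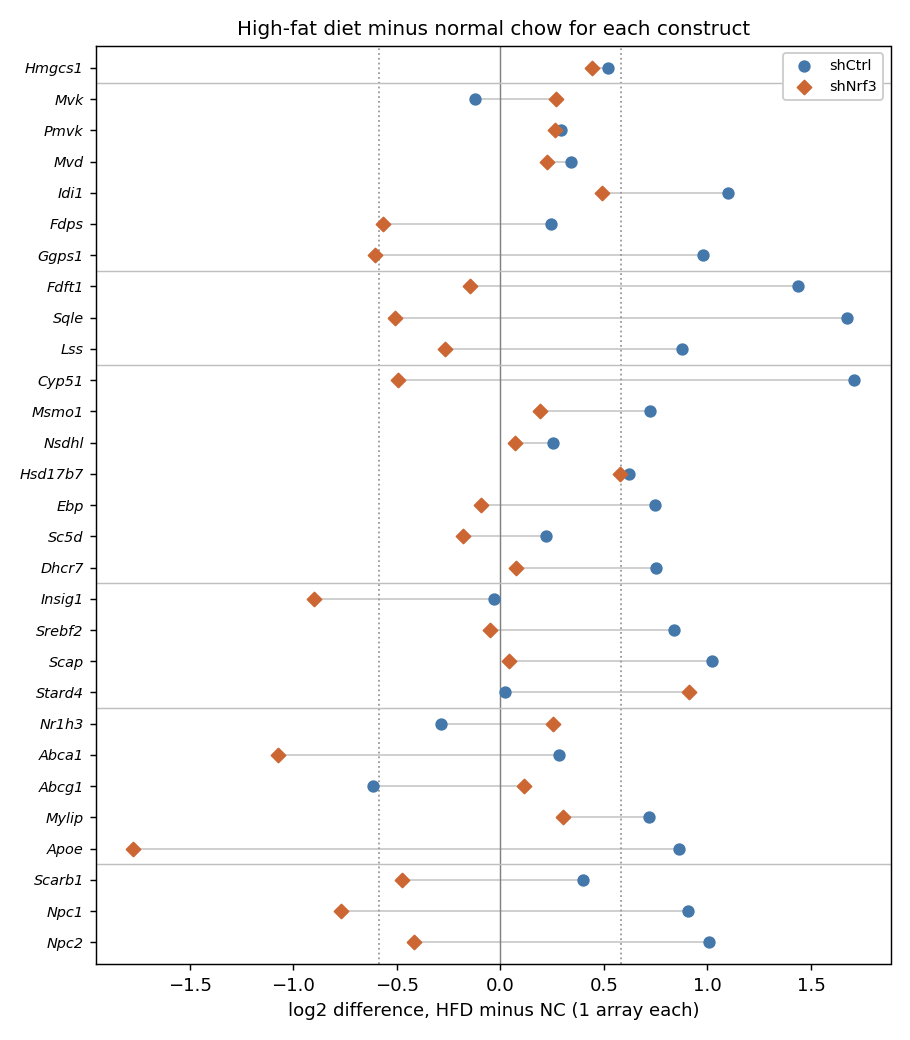
Each row is a cholesterol gene, with its log2 difference of HFD minus NC for shCtrl (circle) and for shNrf3 (diamond) on the x axis, 1 array against 1. Dotted lines mark 1.5-fold, and 16 circles lie beyond the right line and 1 beyond the left, against 1 and 5 diamonds.

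The counts by step below are read against the shares of genes past the filter given above, 26.8% higher with shNrf3 in NC, 20.8% lower with shNrf3 in HFD and 31.2% higher in HFD with shCtrl. Of the steps that lead to mevalonate, Hmgcs1 was measured. Hmgcs1, which joins acetyl-CoA and acetoacetyl-CoA into HMG-CoA, read 12.15 on shCtrl-NC, 12.50 on shNrf3-NC, 12.67 on shCtrl-HFD and 12.94 on shNrf3-HFD. It was a little higher with shNrf3 in each diet (0.35 and 0.27) and with HFD for each construct (0.52 and 0.44), all below 1.5-fold. After centring on positive control rows its knockdown difference in NC was -0.17 and its diet difference with shCtrl -0.04.

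Among the 6 enzymes from mevalonate to isoprenoids, 2 (33.3%) were higher with shNrf3 in NC and 1 (16.7%) lower in HFD, while 2 (33.3%) were higher in HFD with shCtrl, shares near those of genes past the filter. Idi1, which interconverts the 5-carbon isoprenoid units, read 8.61 on shCtrl-NC, 9.63 on shNrf3-NC, 9.71 on shCtrl-HFD and 10.12 on shNrf3-HFD. It was thus 2.03-fold higher with shNrf3 in NC and 2.14-fold higher with HFD for shCtrl, and the other 3 arrays spanned 0.49. Ggps1, which makes geranylgeranyl diphosphate for protein anchors and so leads away from sterols, read 9.18, 10.37, 10.16 and 9.77 in the same order. Its knockdown difference was 1.19 in NC, 2.28-fold, and -0.39 in HFD, and its diet difference 0.98 with shCtrl and -0.60 with shNrf3. Fdps, which makes the farnesyl diphosphate that both branches use, was lowest on another array. It read 8.75 on shCtrl-NC, 8.54 on shNrf3-NC, 8.99 on shCtrl-HFD and 7.98 on shNrf3-HFD, which made it 2.02-fold lower with shNrf3 in HFD. The kinases and the decarboxylase of this stretch differed by less than 1.5-fold in each of the 4 comparisons. Pmvk ran from 7.71 on shCtrl-NC to 8.31 on shNrf3-HFD, Mvd from 6.75 to 7.13 on the same arrays, and Mvk from 5.24 to 5.59, below the negative control median on 3 arrays.

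The 3 enzymes from farnesyl diphosphate to lanosterol were all 1.5-fold or more higher in HFD with shCtrl, and 2 of them with shNrf3 in NC. Squalene epoxidase (Sqle), a rate-limiting enzyme of the sterol branch, read 7.47 on shCtrl-NC, 9.42 on shNrf3-NC, 9.14 on shCtrl-HFD and 8.91 on shNrf3-HFD. The shCtrl-NC array stood 1.44 below the nearest of the others, and the other 3 lay within 0.51 of each other. Sqle was 3.87-fold higher with shNrf3 in NC and 3.19-fold higher with HFD for shCtrl, and its knockdown difference in HFD was -0.23. Squalene synthase (Fdft1) read 9.42, 10.46, 10.86 and 10.31, again lowest on shCtrl-NC, and was 2.05-fold higher with shNrf3 in NC and 2.71-fold higher with HFD for shCtrl. Lanosterol synthase (Lss) had a different order, with 9.31 on shCtrl-NC, 9.46 on shNrf3-NC, 10.18 on shCtrl-HFD and 9.19 on shNrf3-HFD. Its high reading was that of shCtrl-HFD, so that its knockdown difference was -1.00 in HFD and 0.15 in NC.

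Of the 7 enzymes from lanosterol to cholesterol, 3 (42.9%) were higher with shNrf3 in NC and 5 (71.4%) higher in HFD with shCtrl, while 1 was lower with shNrf3 in HFD and 0 were called between diets with shNrf3. The lanosterol demethylase Cyp51 had the widest spread among them, with 9.87 on shCtrl-NC, 10.95 on shNrf3-NC, 11.58 on shCtrl-HFD and 10.45 on shNrf3-HFD. It was 2.11-fold higher with shNrf3 in NC and 2.18-fold lower with shNrf3 in HFD, and 3.27-fold higher with HFD for shCtrl. The sterol isomerase Ebp read 9.44, 10.44, 10.19 and 10.35, with the 3 arrays other than shCtrl-NC within 0.25 of each other. The methyl oxidase Msmo1 read 8.35, 8.77, 9.08 and 8.96, and the reductase Dhcr7, which makes cholesterol in the last step, 6.62, 6.96, 7.38 and 7.04. Of the 4 single comparisons both were called in that of the diets with shCtrl, at 0.72 and 0.75. Hsd17b7, a ketoreductase, read 7.87, 8.19, 8.49 and 8.76, a step up with shNrf3 in each diet (0.32 and 0.27) and with HFD for each construct (0.62 and 0.58). After centring on positive control rows its knockdown difference in NC was -0.20 and its diet difference with shCtrl 0.06. The desaturase Sc5d ran from 11.70 to 12.29 and was called with shNrf3 in NC at 0.59. Nsdhl, which helps remove the methyl groups, was not lowest on shCtrl-NC and differed by less than 1.5-fold throughout (10.23 to 10.79).

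The sensing genes differed from each other. Srebf2, the pathway's transcription factor, read 11.39 on shCtrl-NC, 11.72 on shNrf3-NC, 12.23 on shCtrl-HFD and 11.67 on shNrf3-HFD, and was called in 1 comparison, HFD against NC with shCtrl (0.84). Scap, its escort, read 8.63 on shCtrl-NC and 9.53, 9.66 and 9.57 on the others, which were within 0.13 of each other. Insig1, the retention protein and itself a strong SREBP target, followed neither. It read 10.63, 10.73 and 10.60 on shCtrl-NC, shNrf3-NC and shCtrl-HFD, within 0.13 of each other, and 9.83 on shNrf3-HFD. Insig1 was thus 1.71-fold lower with shNrf3 in HFD and 1.86-fold lower with HFD for shNrf3, while it differed by 0.09 and -0.03 in the comparisons in which Sqle was more than 3-fold higher. Stard4, which moves sterol between membranes and is also an SREBP target, had the opposite single array. It read 8.50, 8.37 and 8.52 on the same 3 arrays and 9.27 on shNrf3-HFD, 1.69-fold higher with shNrf3 in HFD and 1.88-fold higher with HFD for shNrf3. The arrays that stood apart were thus shCtrl-NC for Scap and shNrf3-HFD for Insig1 and Stard4.

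The LXR receptor gene and its targets did not share 1 order of arrays. Nr1h3, which encodes LXR-alpha, read 5.75 on shCtrl-NC, 6.18 on shNrf3-NC, 5.46 on shCtrl-HFD and 6.44 on shNrf3-HFD, near the negative control median. Its knockdown difference was 0.44 in NC, under 1.5-fold, and 0.98 in HFD. After centring on positive control rows the NC difference of Nr1h3 was -0.08. The exporter Abcg1 read 6.71, 6.81, 6.09 and 6.92, with shCtrl-HFD the low array, so that it was 1.78-fold higher with shNrf3 in HFD and 1.53-fold lower with HFD for shCtrl. The exporter Abca1, which loads cholesterol onto apolipoproteins, read 10.18, 11.46, 10.46 and 10.39. Its high array was shNrf3-NC, 2.42-fold above shCtrl-NC and 2.10-fold above shNrf3-HFD. Mylip, the ligase that removes the LDL receptor, read 9.36, 9.22, 10.07 and 9.52, and was called with HFD for shCtrl at 0.72.

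Apoe, the apolipoprotein that carries exported cholesterol, had the widest range of the 29 members. It read 15.52 on shCtrl-NC, 17.53 on shNrf3-NC, 16.38 on shCtrl-HFD and 15.75 on shNrf3-HFD. It was 4.02-fold higher with shNrf3 in NC, 1.55-fold lower with shNrf3 in HFD, 1.82-fold higher with HFD for shCtrl and 3.43-fold lower with HFD for shNrf3. Markers of cells that express Apoe also differed between arrays, though not always in the direction of Apoe. In HFD, 7 of 17 macrophage and monocyte markers (41.2%) were higher with shNrf3 and 1 (5.88%) was lower, while Apoe was lower. Of genes past the filter 9.12% were higher and 20.8% lower in that comparison. The summed signal of 17 measured macrophage and monocyte markers, on the log2 scale, was 15.76 on shCtrl-NC, 17.16 on shNrf3-NC, 15.97 on shCtrl-HFD and 16.73 on shNrf3-HFD, with 15 of 17 higher with shNrf3 in NC and 7 in HFD. The summed signal of 12 measured adipocyte markers, weighted to Fabp4 and Car3, was 14.93, 16.47, 16.06 and 14.59. Their median was 6.83, 9.50, 8.01 and 6.73. Of the 12, 9 (75%) were higher with shNrf3 in NC and 9 (75%) lower in HFD. With HFD, 9 (75%) were higher and 0 lower for shCtrl, and 1 (8.33%) and 7 (58.3%) for shNrf3. Of these markers Marco, Cidea, Lep and Plin4 lay below the negative control median on all arrays. The part of these cells in the Apoe and Abca1 values was not tested.

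The summed signal of skeletal muscle markers was highest on shNrf3-NC, at 14.18 against 9.79 to 10.89 on the other 3 arrays. Of 15 markers 13 (86.7%, beside 26.8% of genes past the filter) were higher there than on shCtrl-NC. Actn3 was highest on shCtrl-NC (7.41) and Mb on shNrf3-HFD (5.73), and Tnnt3 ran from 8.15 to 11.57. Acta1, the actin of skeletal muscle, read 12.51 on shNrf3-NC and 4.73 to 6.48 elsewhere. The part of muscle tissue in the shNrf3-NC values was not tested. On shCtrl-HFD 5 of 15 muscle markers (33.3%) were higher than on shCtrl-NC and 2 (13.3%) lower, near the 31.2% and 10.7% of genes past the filter. Myh8 differed the most, by 1.51, from a shCtrl-NC reading (4.31) below the negative control median. Hepatocyte markers, checked because liver makes much cholesterol, lay below the negative control median on all arrays for 9 of 12 genes, Alb and Apob among them.

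The 3 genes of uptake and lysosomal export were highest on shNrf3-NC or shCtrl-HFD. Npc1, the membrane protein that releases LDL cholesterol from lysosomes, read 5.23 on shCtrl-NC, below the negative control median, 6.78 on shNrf3-NC, 6.13 on shCtrl-HFD and 6.01 on shNrf3-HFD. Its knockdown difference in NC was 1.56, or 1.40 with the low reading set to that median, at a dim level. Its partner Npc2, a soluble lysosomal protein, read 11.95, 12.80, 12.96 and 12.39, 1.80-fold higher with shNrf3 in NC and 2.01-fold higher with HFD for shCtrl. Scarb1, the HDL receptor, was highest on shNrf3-NC (8.49) and was called in none of the 4 comparisons.

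Genes next to the pathway, from lists made with the members, were set beside them. Of 11 measured fatty acid synthesis genes, many of which SREBP1 turns on, shNrf3 in NC had 9 (81.8%) higher and 0 lower, and shNrf3 in HFD had 0 higher and 5 (45.5%) lower, beside 26.8% higher in NC, and 20.8% lower in HFD, of all genes past the filter. With HFD, 7 (63.6%) were higher and 1 (9.09%) lower for shCtrl, and 0 were higher and 6 (54.5%) lower for shNrf3. Of genes past the filter 31.2% were higher and 10.7% lower with HFD for shCtrl, and 8.84% and 14.4% for shNrf3. The desaturases Scd1 and Fads2 differed with shNrf3 by 3.41 and 1.73 in NC and by -0.47 and -0.79 in HFD, and the fatty acid synthase gene Fasn by 1.72 and -0.68. The adipocyte markers above have the same directions, and adipocytes make fatty acids, so their part was not tested. Of 9 measured genes of prenylation and other isoprenoid use, 5 (55.6%) were higher and 0 lower with shNrf3 in NC, and 0 higher and 3 (33.3%) lower in HFD, among them Pggt1b, a subunit of the enzyme that adds geranylgeranyl groups (1.39 and 0.07), and Rce1, which trims prenylated proteins (1.05 and -0.89). With HFD 5 (55.6%) were higher and 1 (11.1%) lower for shCtrl, beside 31.2% and 10.7% of genes past the filter. For shNrf3 0 were higher and 2 (22.2%) lower, beside 8.84% and 14.4%.

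Of 21 measured genes of sterol storage, transport and oxysterol making, 7 (33.3%) were higher and 0 lower with shNrf3 in NC, with a median of 0.03. In HFD 3 (14.3%) were higher and 2 (9.52%) lower, Abcg8 among the lower. This list was not filtered on level: Gramd1b, Abcg5, Abcg8, Cyp27a1 and Cyp46a1 lay below the negative control median on all 4 arrays. Beside it, 26.8% of genes past the filter were higher in NC (median 0.14), and 18.8% of all named genes (median -0.03). In HFD 9.12% of genes past the filter were higher and 20.8% lower, and 15.4% and 15.7% of all named genes. Pltp, a phospholipid transfer protein and LXR target, differed by 2.49 and 0.35. Ch25h, which makes 25-hydroxycholesterol in macrophages, read 5.50 on shCtrl-NC, 7.17 on shNrf3-NC, 6.04 on shCtrl-HFD and 7.79 on shNrf3-HFD, so that its difference was alike in both diets, 1.67 and 1.75. Cyp7b1, which breaks oxysterols down, read 7.28 on shCtrl-NC, 7.36 on shNrf3-NC, 5.29 on shCtrl-HFD and 6.26 on shNrf3-HFD, lower with HFD for both constructs (-1.99 and -1.10). Of 8 further measured genes of SREBP control and its targets, 1 (12.5%) was higher and 1 (12.5%) lower with shNrf3 in NC. Beside these, 26.8% and 13.5% of genes past the filter were. In HFD 2 (25%) were higher and 1 (12.5%) lower, beside 9.12% and 20.8%. Erlin1, which helps degrade the HMG-CoA reductase protein, differed by 0.74 and 1.08, and the lipin gene Lpin1 by -1.09 and -0.52.

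**Figure D4:**
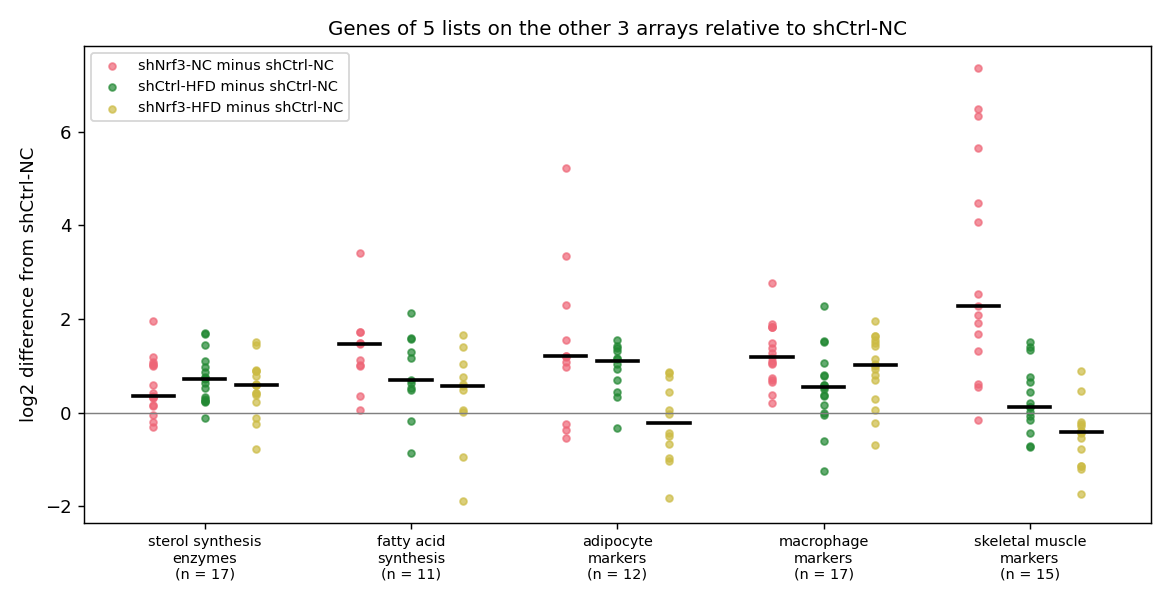
Points are genes of 5 lists, with their log2 difference of each of the other 3 arrays minus shCtrl-NC on the y axis, and bars are the medians of the list. Medians of the 17 sterol synthesis enzymes were 0.35, 0.72 and 0.59 on shNrf3-NC, shCtrl-HFD and shNrf3-HFD, while those of 15 skeletal muscle markers were 2.28, 0.13 and -0.42.

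For the combination of construct and diet, the NC knockdown difference was subtracted from the HFD one. It was below 0 by 1.5-fold or more for 17 of 29 members and above 0 for 2 (Stard4 and Abcg1), with a median of -0.81, while 37.2% of genes past the filter were lower and 13.8% higher (25.9% and 25.5% of all named genes), with a filtered median of -0.30. Largest in size were Apoe (-2.64), Cyp51 (-2.20) and Sqle (-2.19). It has no residual degree of freedom, so it is a value with no test. In a limma fit with additive terms for construct and diet, over the 10021 genes, 0 members passed an adjusted p of 0.05 (Benjamini-Hochberg) for either term, and 0 of the 28 members fitted had an unadjusted p under 0.05. That limma fit called 0 genes in all for each term (447 and 292 genes had an unadjusted p under 0.05). A gene's own error in it, on 1 residual degree of freedom, is the departure from additivity, which is the value just described. The fit draws this error toward a value shared over all genes fitted, so its SE and p values do not rest on the gene alone. Its largest construct differences among members were Sqle at 0.86 ± 0.57, Npc1 at 0.72 ± 0.50, Idi1 at 0.72 ± 0.40 and Nr1h3 at 0.71 ± 0.39 (SE), each with an adjusted p of 0.96 in limma. Idi1 also had the largest diet difference, 0.79 ± 0.40 (SE, limma adjusted p 0.999).

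How many members were called depended on how the arrays were brought to 1 level. In NC, 12 members were higher with shNrf3 as deposited and 13 after centring on the median (31.1% of genes past the filter). Cyclic loess gave 11 (22.3%), as did centring on transcript rows past the filter (19.2%). Centring on positive control rows gave 5 (11.2%) and also made 4 lower (38.0%). For HFD against NC with shCtrl, the 16 became 17 after centring on the median (37.0%) and 10 after cyclic loess (21.3%). Centring on transcript rows past the filter gave 8 (18.0%), and on positive control rows 3 (10.6%). Under all 5 scalings, Ggps1, Sqle, Abca1, Apoe and Npc1 were higher with shNrf3 in NC, and Fdft1, Sqle and Cyp51 were higher in HFD with shCtrl. In HFD, Stard4, Nr1h3 and Abcg1 were higher and Fdps, Lss and Cyp51 lower with shNrf3 under all 5. With shNrf3, Stard4 was higher and Insig1, Abca1, Apoe and Npc1 lower in HFD under all 5. Under these 5 scalings no called member turned its sign in any of the 4 comparisons.

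**Figure D5:**
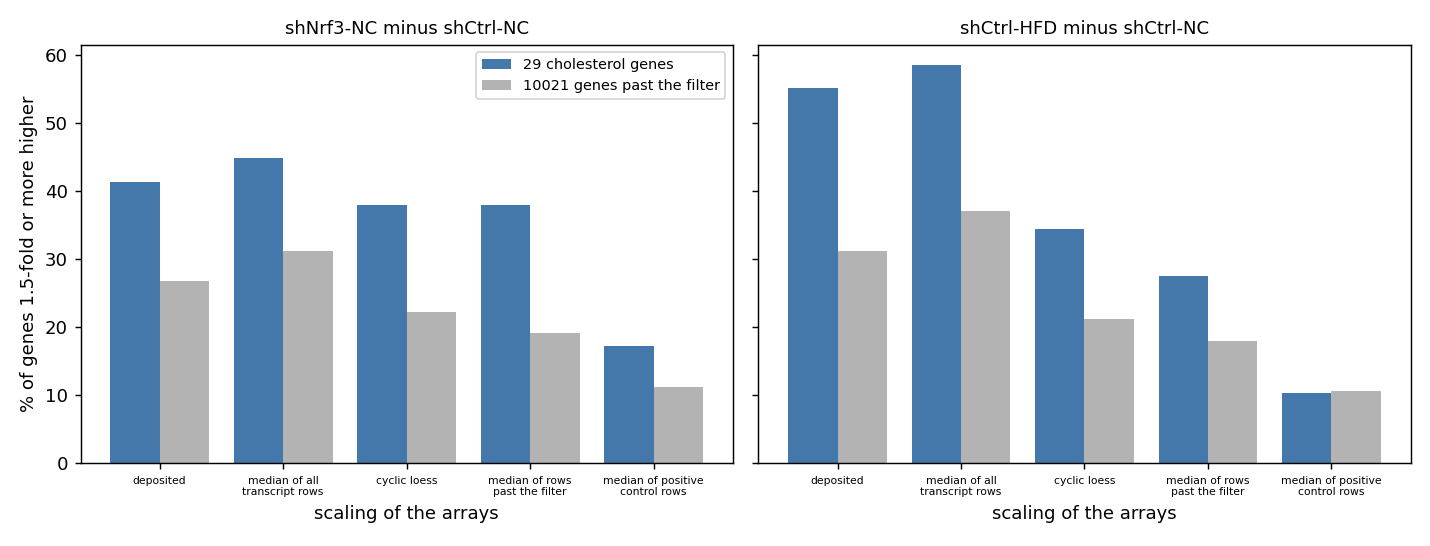
Bars are the percent of genes 1.5-fold or more higher, for the 29 cholesterol genes and the 10021 genes past the filter, in the NC knockdown comparison (left) and the shCtrl diet comparison (right), under 5 scalings of the arrays on the x axis. The members' share falls from 41.4% to 17.2% and from 55.2% to 10.3% between the deposited values and centring on positive control rows, where the genes past the filter stand at 11.2% and 10.6%.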

How the data were processed

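Biotin-labelled cRNA was made from 100 ng of total RNA of tumor tissue per array, per the labels' protocols. The authors deposited log2 values and used Affymetrix Expression Console and RMA to make them, per the submitters' processing notes. Their versions and the genome build were not given in the sources used here. Arrays give no depth of counts, and their number (4, 1 per group) limits the precision. The table's 28846 rows include 5222 negative and 1324 positive control rows, by row name. The platform annotation gave 1 symbol for 19572 probe sets, or 19505 genes, and all Entrez IDs matched RefSeq's GRCm38.p6 gene table, used for names alone. Each member had 1 probe set; for other genes the brightest on average was used.

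Differences of log2 values were counted at 1.5-fold, with no filter for members; background shares used all named genes and the 10021 with a mean at or above 5.73. An additive fit of construct and diet used limma 3.58.1 in R 4.3.3 and was tested on simulated data. Alternatives were cyclic loess, 3 centrings, 2 filters, 2-fold, control-median flooring and averaging of probe sets. The members and lists were chosen with earlier results of these data known, and centring on positive control rows or on transcript rows past the filter after the values were seen. Named were members 2-fold or more different in any comparison, with Srebf2, Insig1, Ggps1, Abca1 and Nr1h3, and up to 4 neighbours or 3 markers a list with the largest differences; other members and the markers of identity were added for completeness. Epithelial, fibroblast, skin, liver, muscle, fat and macrophage markers were listed. Fibroblast markers were 0 higher and 5 lower of 11 with shNrf3 in NC and 0 and 8 in HFD, and skin and sebaceous markers 1 and 6 of 13, and 1 and 8. Promoter motifs were not analysed here.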

Additional observations from a re-analysis of the deposited data

Results flagged for a closer look

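Some members moved by 1.5-fold or more in opposite directions in the 2 settings of a comparison, 1 array against 1 in each. These differences were not tested. For knockdown, Cyp51 differed by 1.08 in NC and -1.12 in HFD, a gap of 2.20, and Apoe by 2.01 and -0.63, a gap of 2.64. For diet, Ggps1 differed by 0.98 with shCtrl and -0.60 with shNrf3, a gap of 1.58, Npc1 by 0.91 and -0.77, a gap of 1.67, and Apoe by 0.86 and -1.78, the same gap of 2.64, since both are the construct by diet difference. Each of these pairs had at least 1 side under 1.5-fold after centring on positive control rows: Cyp51 in NC (0.57), Apoe in HFD (-0.46), Ggps1 between diets with shCtrl (0.42) and with shNrf3 (-0.48), and Npc1 (0.34) and Apoe (0.30) between diets with shCtrl. After cyclic loess and after centring on transcript rows past the filter, Apoe in HFD and between diets with shCtrl and Ggps1 between diets with shNrf3 were also under it. Npc1 read below the negative control median on shCtrl-NC, and with that reading set to the median its diet differences were 0.75 with shCtrl and -0.77 with shNrf3.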

How the results depend on the processing

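Counts of members at 1.5-fold, in order for knockdown in NC, knockdown in HFD, diet with shCtrl, diet with shNrf3 and construct by diet, were 12, 3, 16, 1 and 2 higher and 0, 5, 1, 5 and 17 lower. Counts that moved by over 1.5 times are given here, by setting and in that order. Centring on positive control rows gave 5 higher and 4 lower for knockdown in NC, 3 and 4 for diet with shCtrl, 3 higher for diet with shNrf3, and 7 and 8 for construct by diet (24.1% and 27.6% of members). Of genes past the filter 40.0% were then higher and 14.7% lower for construct by diet, and 10.6% and 32.5% for diet with shCtrl. For knockdown in NC the shares were 11.2% and 38.0%, and 13.8% were higher for diet with shNrf3. Centring on transcript rows past the filter gave 3 lower for knockdown in HFD, beside 12.9% of genes past the filter. For diet with shCtrl it gave 8 and 2 (18.0% and 20.4%), and for diet with shNrf3 3 higher (12.5%). Construct by diet then had 4 and 9 (26.9% and 22.1%). Centring on the median gave 9 lower for knockdown in HFD (31.0% of members, beside 23.1% of genes past the filter). It gave 0 lower for diet with shCtrl (8.36%) and 1 higher for construct by diet (10.7%). Cyclic loess gave 10 higher for diet with shCtrl (21.3% of genes past the filter) and 2 higher for diet with shNrf3 (8.92%). At 2-fold, knockdown in HFD had 0 higher and 2 lower, diet with shCtrl 6 and 0, diet with shNrf3 0 and 2, and construct by diet 0 and 9, since fewer genes reach a larger fold. The 75th percentile filter (8.45), which leaves 20 members, gave 1 higher for knockdown in HFD, 0 lower for diet with shCtrl and 1 higher for construct by diet. Shares over all genes are not given here at 2-fold or with this filter. Members lowest on shCtrl-NC were 20 as deposited (41.6% of genes past the filter) and 9 after centring on positive control rows (17.1%). The limma fit called 0 genes for each term, but 53 for construct and 44 for diet after centring on positive control rows and 21 and 6 after centring on transcript rows past the filter, with 0 members among them. After centring on positive control rows the limma SE was the same for every fitted member and each term, 0.50. A member's own departure from additivity thus had no weight in it, and calls under that centring hold no measure of spread between tumors. Under the same centring, the construct by diet differences of Idi1 and Dhcr7 turned from -0.61 and -0.68 to 0.080 and 0.012. Beyond what centring does by construction, the cause of these moves was not tested. No paired analysis was possible because each group has 1 array. Promoter motifs were not run. The arrays give no error for 1 group, and 9 members are dimmer than the brightest 5% of negative control rows on every array.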
